A study of Mus musculus with 12 samples.

Results

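De novo lipogenesis, the making of fatty acids from acetyl units, was followed in the RNA of the mouse adrenal cortex through 9 genes. These are the citrate carrier *Slc25a1*, the acetyl-CoA-forming enzymes *Acly* and *Acss2*, the acetyl-CoA carboxylases *Acaca* and *Acacb*, the fatty acid synthase *Fasn*, the cytosolic malic enzyme *Me1*, and the related proteins *Thrsp* (Spot 14) and *Mid1ip1* (MIG12). They were chosen by name, as enzymes and partner proteins of this pathway, and all 9 were found among the 49585 genes of the count files. RNA was sequenced from 12 mice, 4 in each of 3 groups, and each mouse gave 1 library. Mice of the first group received a low-fat diet (LFD, "Normal Diet" in the labels) with 10% of its energy as fat for 20 weeks. The second group received a high-fat diet (HFD) with 60% of its energy as fat for the same 20 weeks. The HFD + IPE group was fed the HFD for 20 weeks, and for the last 10 of them the diet held icosapent ethyl, a purified ethyl ester of the omega-3 fatty acid EPA. By the methods of the study these were male C57BL/6J wild-type mice, 6 weeks old when the diets began. The labels give the genotype *Fads2*-/- for all 12 mice, and *Fads2* was expressed at 451.8 to 2182 CPM in every one of them (read counts scaled to the normalized size of the library). Libraries held between 34785979 and 67295963 counts on genes.

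The adrenocortical markers *Nr5a1*, *Star*, *Cyp11a1*, *Cyp11b1*, *Mc2r*, and *Cyp21a1* summed to at least 28026 CPM in each mouse, so that the defining markers of the labelled tissue were present. Markers of chromaffin cells, which belong to the medulla, were present as well, and their 5 genes summed to between 2408 and 17495 CPM. The 8 adipocyte markers summed to between 244.1 and 440.9 CPM. In a tissue measured in bulk, fewer cells of a type and less RNA per cell cannot be told apart.

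In this pathway, citrate leaves the mitochondria through SLC25A1 and is cleaved by ACLY to acetyl-CoA, and ACSS2 makes the same product from acetate. ACACA and ACACB turn acetyl-CoA into malonyl-CoA, FASN joins these units to palmitate, and ME1 is one of the enzymes that supply the NADPH for it. MID1IP1 promotes the assembly of acetyl-CoA carboxylase into active polymers and pairs with THRSP, which thyroid hormone and carbohydrate feeding induce in the liver. The transcription factors SREBP1c and ChREBP drive many of these genes in liver and fat. In the adrenal cortex, cytosolic acetyl-CoA also feeds cholesterol, the precursor of the steroid hormones.

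Sequences before the RefSeq start are shown for 4 of these genes, because *Acly*, *Me1*, and *Mid1ip1* were correlated from mouse to mouse and *Fasn* is the central enzyme of the pathway. For *Mid1ip1*, the RefSeq start lies inside the gene that GENCODE M21 gives. The sequences are RefSeq's, build GRCm38.p6, on the strand of each gene and 5′ to 3′, and each ends at the base before the RefSeq start of transcription or, in *Me1*, before the first exon that GENCODE M21 gives. Capitals mark matches on either strand to the letters CCAAT, which the factor NF-Y binds. The windows are *Acly* chr11:100528001-100528250 on the minus strand, *Me1* chr9:86695954-86696164 on the minus strand, *Mid1ip1* chrX:10717115-10717364 on the plus strand, and *Fasn* chr11:120824548-120824797 on the minus strand.
Acly: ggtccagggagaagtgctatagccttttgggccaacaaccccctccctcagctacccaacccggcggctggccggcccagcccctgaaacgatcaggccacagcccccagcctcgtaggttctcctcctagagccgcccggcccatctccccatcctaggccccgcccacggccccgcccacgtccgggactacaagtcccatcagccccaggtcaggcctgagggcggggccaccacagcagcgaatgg
Me1: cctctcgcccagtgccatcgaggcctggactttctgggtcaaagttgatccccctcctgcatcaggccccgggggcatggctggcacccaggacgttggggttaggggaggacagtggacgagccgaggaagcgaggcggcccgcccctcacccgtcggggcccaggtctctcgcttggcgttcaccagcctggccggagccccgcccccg
Mid1ip1: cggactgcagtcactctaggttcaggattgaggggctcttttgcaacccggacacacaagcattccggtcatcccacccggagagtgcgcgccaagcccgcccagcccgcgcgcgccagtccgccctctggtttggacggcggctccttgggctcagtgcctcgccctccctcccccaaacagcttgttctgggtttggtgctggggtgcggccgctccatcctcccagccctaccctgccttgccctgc
Fasn: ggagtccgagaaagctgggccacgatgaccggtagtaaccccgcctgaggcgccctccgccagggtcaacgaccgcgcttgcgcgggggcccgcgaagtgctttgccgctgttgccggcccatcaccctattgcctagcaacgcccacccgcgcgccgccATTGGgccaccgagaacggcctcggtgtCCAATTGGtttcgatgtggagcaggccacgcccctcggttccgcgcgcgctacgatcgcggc

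Over the 250 bases before the RefSeq start of all 9 genes, CCAAT was found 3 times in *Fasn*, 2 times in *Thrsp*, and 1 time each in *Slc25a1*, *Acss2*, and *Acacb*. In *Fasn*, the 2 matches nearest the start lie on opposite strands and share letters, as the run CCAATTGG shows. The windows of *Acly*, *Me1*, *Mid1ip1*, and *Acaca* held none. Among all 32851 RefSeq windows of this length, 33.8% held CCAAT. The E-box CACGTG occurred 1 time, in *Slc25a1*, against 6.02% of all windows. The letters TCACNCCAC, a form of the sterol response element with N for any base, were absent from the 9 windows and present in 1.05% of all. No window of *Thrsp* is printed because 180 of its 250 bases lie in a first exon that GENCODE M21 places farther upstream. Both *Thrsp* matches, and the match of *Acss2*, whose window holds 95 bases of a GENCODE M21 exon, lie in those exons. For *Mid1ip1*, *Acaca*, and *Acacb*, GENCODE M21 also lists starts upstream of the RefSeq start, so that these windows lie inside the genes. The window of *Acaca* begins at chr11:84195188 and the gene at 84129672. That of *Acacb* begins at chr5:114165268 and the gene at 114146535, and 9 of its bases lie in an exon. Motif counts in these windows therefore do not describe the sequence before the GENCODE M21 starts.

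Levels of different genes were compared only per kilobase of exon (CPM divided by the length of all annotated exons). In LFD mice, *Me1* stood at 720 ± 123 CPM per kilobase (SD, n = 4) and *Acly* at 319 ± 71.3, both apart from every other member. *Slc25a1* followed at 67.5 ± 3.81, *Mid1ip1* at 40.3 ± 10.9, *Fasn* at 23.6 ± 5.67, and *Thrsp* at 17.4 ± 2.09. *Acss2* (7.13 ± 0.806), *Acacb* (5.29 ± 1.01), and *Acaca* (2.59 ± 0.449) were the lowest. Of these neighbors, the mice of *Mid1ip1* and *Fasn*, of *Fasn* and *Thrsp*, and of *Acss2* and *Acacb* overlapped. The order was the same in HFD and HFD + IPE mice, except that *Acacb* stood above *Acss2*, at 7.28 ± 1.32 against 6.81 ± 0.266 and at 6.69 ± 1.05 against 6.49 ± 0.426, with overlapping mice in both groups. The exon lengths used were 17.074 kilobases for *Acaca* and 5.279 kilobases for *Acly*, and a gene whose expressed transcripts are shorter than all its exons together is understated. The lowest count of any member in any mouse was 702, for *Thrsp*, so that counting error was small beside the spread between mice.

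The comparison of HFD and LFD mice asks how long-term feeding of the high-fat diet relates to the RNA of this pathway. A diet with more of its energy as fat has less from carbohydrate and protein together. The comparison cannot tell these apart. On average, *Acly* was 1.66-fold, *Me1* 1.38-fold, and *Acacb* 1.37-fold higher in HFD mice, and *Thrsp* and *Mid1ip1* were at 0.656 and 0.71 of the LFD level. *Fasn*, *Acaca*, *Slc25a1*, and *Acss2* were at between 0.901 and 1.06 of it. No member passed the test over all genes. In the quasi-likelihood fit of edgeR, the Benjamini-Hochberg adjusted p was below 0.05 for 0 of 9 members and for 230 of all 15909 genes tested (1.45%). At an unadjusted p below 0.05, 4 of 9 members passed (*Acly*, *Acacb*, and *Me1* higher, *Thrsp* lower), beside 24.8% of all genes. By DESeq2, 3 of 9 had an adjusted p below 0.05 (*Acly* and *Me1* higher, *Thrsp* lower), beside 12.7% of all genes. The mice of the groups did not overlap for 1 member, *Thrsp*, and for 13.5% of all genes. The median log2 fold change was 0.065 over the members and -0.015 over all genes, with 5 members above 0 and 4 below.

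**Figure D1:**
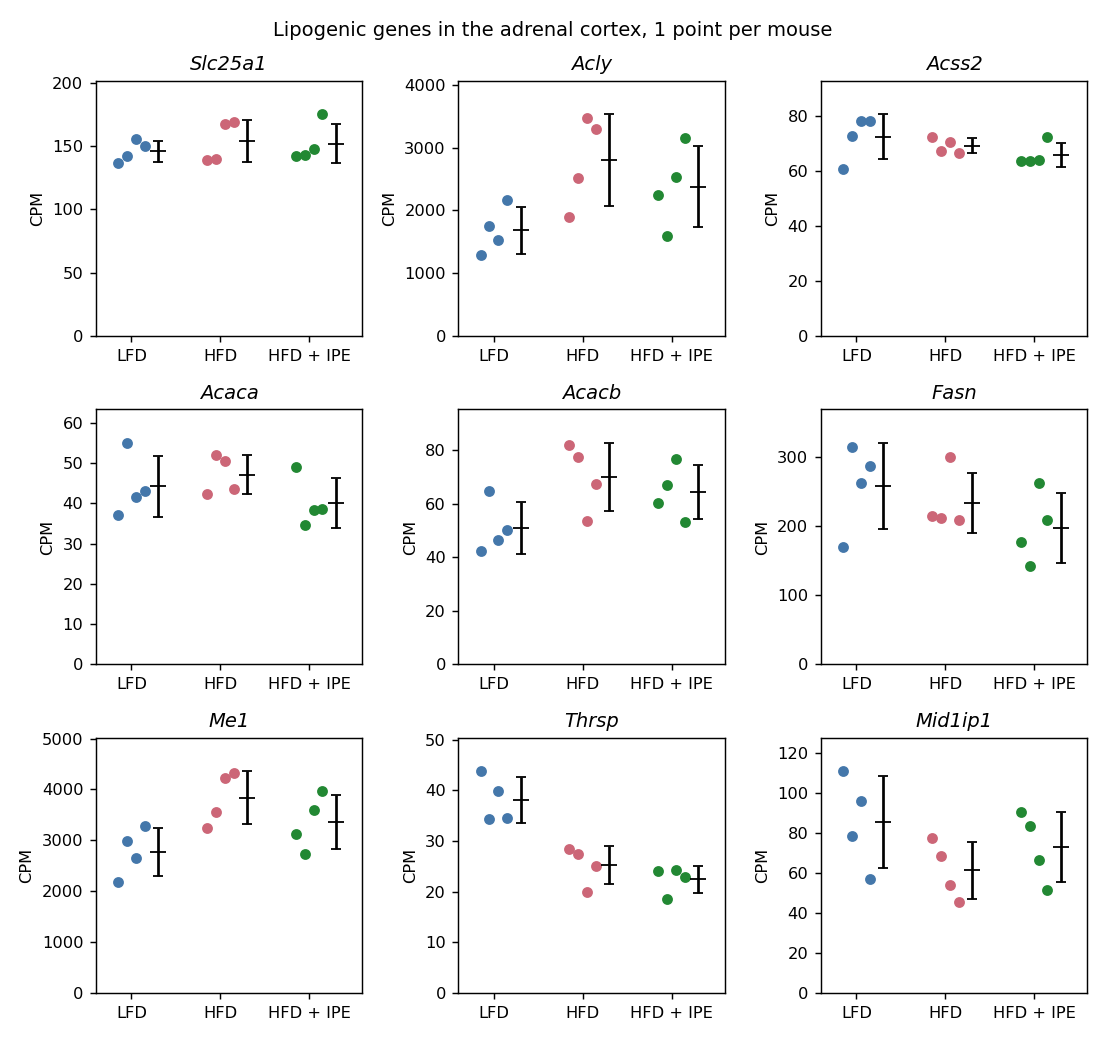
Level of each of the 9 genes in CPM (y axis, from 0) in the mice of the LFD, HFD, and HFD + IPE groups (x axis), with 1 point per mouse and the mean ± SD of 4 mice beside them. The 4 HFD and the 4 HFD + IPE mice lie below all LFD mice for *Thrsp* (at most 28.49 against at least 34.42 CPM), and the groups overlap for the other genes.

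*Acly* (ENSMUSG00000020917, GRCm38 chr11:100476353-100528000) encodes ATP citrate lyase, the main source of cytosolic acetyl-CoA. It was measured at 1285, 1754, 1523, and 2169 CPM in LFD mice 2, 5, 6, and 7, and at 1891, 2522, 3476, and 3301 CPM in HFD mice 1 to 4. Of the HFD mice, 3 exceeded every LFD mouse, and HFD mouse 1 lay among the LFD values. The means were 1683 ± 376 and 2797 ± 733 CPM (SD, n = 4 each). On the log2 scale the difference was 0.73 (SE 0.21, 95% interval 0.24 to 1.21), with an adjusted p of 0.0951 by edgeR and 0.0269 by DESeq2. Leaving out 1 mouse at a time gave log2 fold changes from 0.62 (without HFD mouse 3) to 0.87 (without HFD mouse 1) and edgeR adjusted p-values from 0.0366 to 0.232. Only the fit without HFD mouse 1 passed, and in that fit 918 of all genes passed as well, against 230 with every mouse kept.

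*Slc25a1* (chr16:17925223-17928219), the carrier that exports the citrate, ranged from 136.7 to 155.2 CPM in LFD mice and from 138.7 to 168.6 CPM in HFD mice. The groups overlapped, and the log2 fold change of 0.065 had an interval from -0.14 to 0.27. *Acss2* (chr2:155517948-155585724), the acetate-using enzyme, ranged from 60.83 to 78.29 CPM and from 66.66 to 72.48 CPM, so that every HFD mouse lay within the LFD range. Its log2 fold change was -0.07 (interval -0.27 to 0.13). The intervals of both genes thus leave out changes as large as the one fitted for *Acly*.

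The carboxylases differed in their values. *Acacb* (chr5:114146535-114250761), the form tied to mitochondria whose malonyl-CoA restrains fatty acid import, was at 42.23, 64.66, 46.67, and 50.24 CPM in LFD mice and at 82.16, 77.55, 53.52, and 67.39 CPM in HFD mice. Of the HFD mice, 3 were above every LFD mouse, and mouse 3 was within their range. The log2 fold change was 0.45 (SE 0.16, interval 0.08 to 0.83), and the adjusted p was 0.144 by edgeR and 0.0842 by DESeq2. *Acaca* (chr11:84129672-84401651), the cytosolic form that supplies FASN, ranged from 37.06 to 54.99 CPM in LFD mice and from 42.18 to 51.98 CPM in HFD mice. All HFD mice lay within the LFD range, and the log2 fold change was 0.08 (interval -0.21 to 0.38). Whether the fold changes of the carboxylases differ was not tested.

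*Fasn* (chr11:120805846-120824547) was at 170, 313.2, 262.3, and 285.7 CPM in LFD mice and at 213.7, 211.6, 298.7, and 208.4 CPM in HFD mice. LFD mouse 2 held the lowest value of either group, and the HFD mice lay within the LFD range. The log2 fold change was -0.15 (SE 0.19, interval -0.58 to 0.28; adjusted p = 0.667 by edgeR). *Me1* (chr9:86581371-86695953), which yields NADPH from malate, was at 2172, 2977, 2648, and 3279 CPM in LFD mice and at 3238, 3559, 4223, and 4322 CPM in HFD mice. Again 3 HFD mice were above every LFD mouse, and HFD mouse 1 was just under LFD mouse 7. The log2 fold change was 0.46 (SE 0.14, interval 0.14 to 0.79), with an adjusted p of 0.105 by edgeR and 0.0478 by DESeq2.

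*Thrsp* (chr7:97412938-97417730) was at 43.81, 34.42, 39.97, and 34.48 CPM in LFD mice and at 28.49, 27.45, 19.93, and 25.1 CPM in HFD mice. Every HFD mouse was below every LFD mouse. The means were 38.17 ± 4.57 and 25.24 ± 3.81 CPM (SD, n = 4 each), and the log2 fold change was -0.61 (SE 0.14, interval -0.93 to -0.29), with an adjusted p of 0.0626 by edgeR and 0.00311 by DESeq2. Leaving out 1 mouse at a time gave log2 fold changes from -0.67 (without HFD mouse 1) to -0.49 (without HFD mouse 3) and edgeR adjusted p-values from 0.0445 to 0.181, and only the fit without HFD mouse 1 passed. Its partner *Mid1ip1* (chrX:10715013-10719690) was at 111.1, 78.55, 95.99, and 57.2 CPM in LFD mice and at 77.39, 68.63, 53.95, and 45.5 CPM in HFD mice. The groups overlapped, with 2 HFD mice below every LFD mouse. The log2 fold change was -0.495 (SE 0.23, interval -1.02 to 0.03), and the adjusted p was 0.226 by edgeR and 0.18 by DESeq2.

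**Figure D2:**
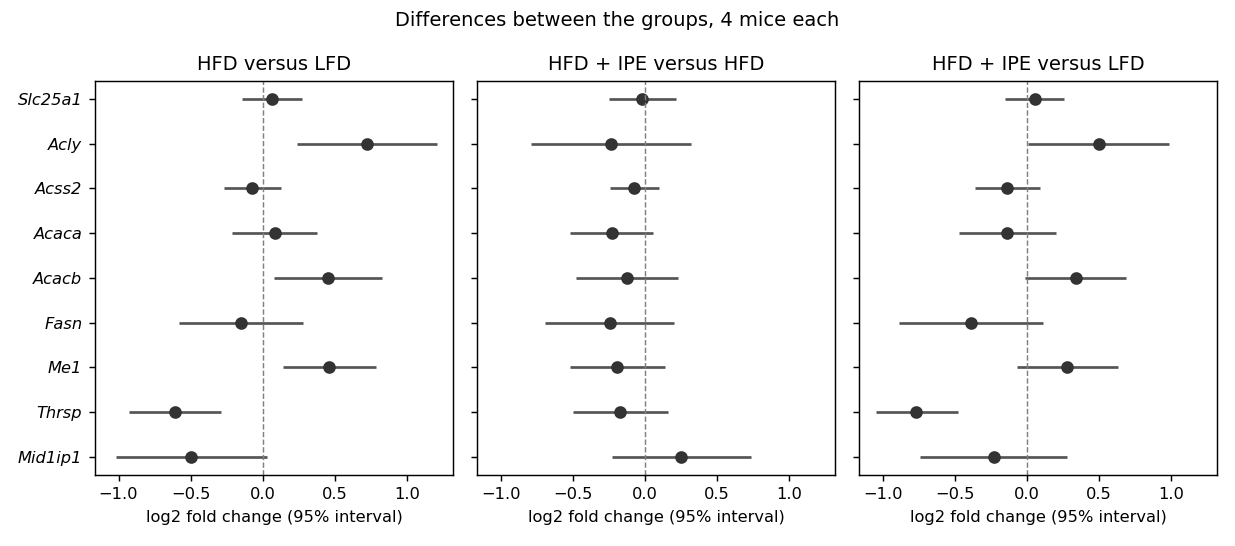
Log2 fold change (x axis) of each of the 9 genes (y axis) between the groups, from left to right HFD versus LFD, HFD + IPE versus HFD, and HFD + IPE versus LFD, with 4 mice in each group. Points are edgeR estimates and lines their 95% intervals, and the interval of *Thrsp* lies below 0 in both comparisons with LFD mice (-0.93 to -0.29 and -1.05 to -0.48), while all intervals of HFD + IPE versus HFD include 0.

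Marker lists of other cell types also differed in level between the diets. The 5 macrophage markers summed to between 237.3 and 361.4 CPM in LFD mice, 161.2 and 188.1 CPM in HFD mice, and 165.9 and 192.6 CPM in HFD + IPE mice. As for *Thrsp*, the LFD mice stood apart from both other groups, which overlapped each other. In HFD versus LFD mice, all 5 had a negative log2 fold change, and 3 (*Cd68*, *C1qa*, and *Cd5l*) passed the test. The 6 adrenocortical markers all had a positive one, with 0 past the edgeR threshold, 5 at an unadjusted p below 0.05, and 2 past it by DESeq2, and their sums had medians of 37370 and 62442 CPM in LFD and HFD mice. The 5 chromaffin markers all had a negative one, with 0 past the edgeR threshold, 3 at an unadjusted p below 0.05, and 2 past it by DESeq2, and summed to medians of 12485 and 4619 CPM. For the 8 adipocyte markers, the medians were 288.8 and 394 CPM, with 5 of 8 positive and 0 past the edgeR threshold. By DESeq2, 2 passed it as higher and 1, *Cfd*, as lower (0.227 of the LFD level), and *Retn* and *Adig* also had negative values. Most of the sum came from *Plin1* and *Fabp4*, with means of 194.8 and 167.1 CPM in HFD mice. The defining adipocyte gene *Adipoq* was detected in every mouse, at 1.164 to 11.7 CPM. Among all genes, 1.45% passed by edgeR, 24.8% were at an unadjusted p below 0.05, and 12.7% passed by DESeq2. Of the endothelial and brown adipocyte markers, 0 of 3 and 0 of 2 tested passed. The part of these cells in the values of the members was not tested, but the fits could be repeated with the mean level of a marker list as a covariate.

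The adipocyte covariate was the mean of 7 of the adipocyte markers, without *Lep*. The counts of *Lep* (18 to 766) were higher than those of *Adig* (2 to 45), which was kept. *Lep* was higher in every HFD mouse than in every LFD mouse (log2 fold change 3.19), a difference that this covariate does not include. With this covariate, 4 members had an adjusted p below 0.05 by edgeR, beside 1440 of all 15909 genes tested, against 230 without a covariate. These were *Acly* (log2 fold change 0.78, adjusted p = 0.0352), *Me1* (0.496, adjusted p = 0.0373), *Thrsp* (-0.62, adjusted p = 0.0342), and *Mid1ip1* (-0.52, adjusted p = 0.037). With the adrenocortical markers as a covariate, which was chosen after the data were seen, the log2 fold changes were 0.19 for *Acly*, 0.15 for *Me1*, 0.09 for *Mid1ip1*, -0.34 for *Thrsp*, 0.58 for *Acacb*, and -0.46 for *Fasn*. None of these had an adjusted p below 0.118 by edgeR, whereas 1182 of all 15909 genes tested passed, against 230 without a covariate. With the chromaffin markers, also chosen afterwards, they were 0.55 for *Acly*, 0.33 for *Me1*, -0.12 for *Mid1ip1*, and -0.55 for *Thrsp*, and 0 genes passed.

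The comparison of HFD + IPE with HFD mice asks how icosapent ethyl relates to the pathway during continued fat feeding. No member passed the test, and the mice of the groups overlapped for each. By edgeR's quasi-likelihood test, 0 of 9 members and 0 of all 15913 genes (0%) had an adjusted p below 0.05, and the adjusted p of each member was 0.9997. At an unadjusted p below 0.05, 0 members and 1.39% of all genes passed, and by DESeq2 0 members and 0.0377% of all genes. The share of all genes whose groups did not overlap was 1.14%. The log2 fold change was below 0 for 8 members and above 0 for *Mid1ip1*, with a median of -0.17 over the members and 0.004 over all genes.

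Among the enzymes, *Acly* was at 2241, 1592, 2524, and 3146 CPM in HFD + IPE mice 1 to 4, and *Me1* at 3133, 2740, 3594, and 3976 CPM. HFD + IPE mouse 2 was the lowest of its group for both genes and lay below every HFD mouse. The log2 fold changes from HFD mice were -0.235 for *Acly* (interval -0.79 to 0.32) and -0.19 for *Me1* (interval -0.52 to 0.14). *Fasn* was at 176.1, 142, 261.6, and 208.3 CPM, and 3 of these mice were below every HFD mouse, the last only just (208.3 against 208.4 CPM). Its log2 fold change was -0.24 (interval -0.69 to 0.20), and it was -0.10 without HFD mouse 3, which held the highest HFD value. *Acaca* ranged from 34.7 to 49.05 CPM, *Acacb* from 53.21 to 76.92 CPM, *Slc25a1* from 141.7 to 175 CPM, and *Acss2* from 63.56 to 72.4 CPM. Their log2 fold changes lay between -0.23 (*Acaca*, interval -0.52 to 0.06) and -0.02 (*Slc25a1*, interval -0.25 to 0.22).

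The regulatory pair took different directions in value. *Thrsp* was at 24.02, 18.5, 24.38, and 22.82 CPM in HFD + IPE mice, all within or below the HFD range, with a log2 fold change of -0.17 (interval -0.50 to 0.16). *Mid1ip1* was at 90.48, 83.82, 66.69, and 51.66 CPM. The first 2 of these mice exceeded every HFD mouse, and the log2 fold change was 0.25 (SE 0.21, interval -0.23 to 0.74).

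HFD and HFD + IPE mice are both numbered 1 to 4 in the labels, which do not say what a number marks or that the mice are paired. In their deviations from the group means, HFD mouse 1 correlated more with HFD + IPE mouse 2 (0.708) than with HFD + IPE mouse 1 (0.326). HFD mouse 2 correlated more with HFD + IPE mouse 1 (0.592) than with HFD + IPE mouse 2 (0.139). HFD mouse 3 correlated slightly more with HFD + IPE mouse 4 (0.448) than with HFD + IPE mouse 3 (0.416). Mice of the same number are called pairs only by that number. *Mid1ip1* was higher in the HFD + IPE mouse than in the HFD mouse of the same number in 4 of 4 pairs, by 0.23, 0.29, 0.31, and 0.18 on the log2 scale. *Fasn* was lower in 4 of 4 pairs, by values from -0.575 to -0.001, and *Me1* was lower in 4 of 4, by values from -0.377 to -0.048. Of all genes, 12.4% had the same sign in all 4 pairs. With the replicate number as a block, the log2 fold change was 0.25 for *Mid1ip1* (SE 0.064, unadjusted p = 0.00646 by edgeR), -0.26 for *Fasn* (SE 0.1, unadjusted p = 0.0373), and -0.19 for *Me1* (SE 0.087, unadjusted p = 0.0634). All 3 had an adjusted p of 0.889 by edgeR, and 4.37% of all genes had an unadjusted p below 0.05 in this fit. For the other 6 members, the pairs differed in sign. The 6 adrenocortical markers all had a negative and the 5 chromaffin markers all a positive log2 fold change in HFD + IPE versus HFD mice, with 0 past the threshold, and their part in these values was not tested.

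**Figure D3:**
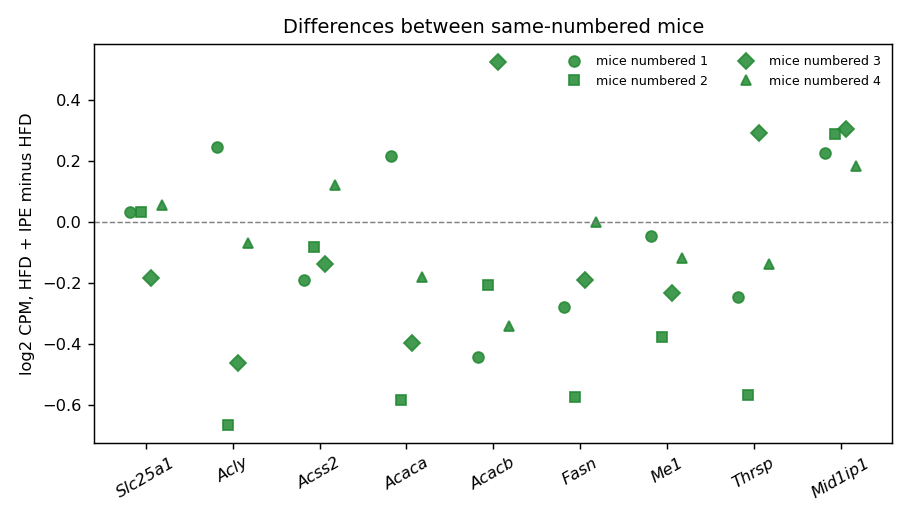
Difference in log2 CPM between the HFD + IPE and the HFD mouse of the same number (y axis) for each of the 9 genes (x axis), with 1 symbol for each number. The 4 points of *Mid1ip1* lie between 0.183 and 0.305, those of *Fasn* and *Me1* are all below 0, and the points of the other genes fall on both sides of 0.

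HFD + IPE and LFD mice differed in icosapent ethyl and in the diet, both in its share of fat and so in the rest of its energy. This comparison cannot tell these apart, and the LFD mice are the same as above. *Thrsp* was again lower, at 22.43 ± 2.71 against 38.17 ± 4.57 CPM (SD, n = 4 each), and *Acly* was higher, at 2376 ± 645 against 1683 ± 376 CPM. By edgeR, 0 of 9 members and 0 of all 15935 genes (0%) had an adjusted p below 0.05. At an unadjusted p below 0.05, 2 members passed (*Acly* higher, *Thrsp* lower), beside 14% of all genes. By DESeq2, 1 member, *Thrsp*, had an adjusted p below 0.05, beside 2.96% of all genes. The groups did not overlap for *Thrsp* and for 7.73% of all genes.

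For *Thrsp*, the log2 fold change from LFD mice was -0.77 (SE 0.13, interval -1.05 to -0.48), with an adjusted p of 0.153 by edgeR and 8.75e-05 by DESeq2. For *Acly*, it was 0.498 (interval 0.01 to 0.99, adjusted p = 0.353 by edgeR). *Acacb* (0.34, interval -0.01 to 0.69) and *Me1* (0.28, interval -0.07 to 0.63) had positive values, and *Fasn* (-0.39, interval -0.89 to 0.11) and *Mid1ip1* (-0.23, interval -0.74 to 0.28) negative ones. *Acss2* (-0.14), *Acaca* (-0.14), and *Slc25a1* (0.06) were nearest to 0.

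The members also varied among themselves from mouse to mouse, and 36 pairs of members were correlated over the 12 mice on the log2 CPM scale. *Acly* and *Me1* had a Pearson r of 0.976 (permutation p = 1e-05, the smallest that 100000 resamples can give, adjusted p = 0.00036) and a Spearman rho of 0.972 (permutation p = 2e-05, adjusted p = 0.00036). Without the 2 mice farthest from the median of *Acly*, r was 0.975, and with the mean of each group removed it was 0.96. The mice thus kept nearly the same order for both genes, within groups as well as over all. LFD mouse 2 had the lowest value of both, and HFD mice 3 and 4 the highest. Such an r was not particular to this pair. Genes outside the members came closer to each, such as *Adam9* to *Acly* (r = 0.985) and *Acsl4* to *Me1* (r = 0.991). How many pairs among all genes reach such values was not counted.

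*Mid1ip1* ran opposite to both genes. Its r was -0.895 with *Acly* (permutation p = 0.00016, adjusted p = 0.00192) and -0.924 with *Me1* (permutation p = 5e-05, adjusted p = 0.0009), and the rho was -0.874 (permutation p = 0.00041, adjusted p = 0.00492) and -0.951 (permutation p = 2e-05, adjusted p = 0.00036). Without 2 mice, r was -0.847 and -0.866, and with group means removed it was -0.882 and -0.93. *Slc25a1* and *Mid1ip1* had an r of -0.757 (permutation p = 0.00482, adjusted p = 0.0434) and a rho of -0.685 (permutation p = 0.017, adjusted p = 0.123), and r was -0.566 without 2 mice. None of the other pairs had an adjusted p of r below 0.05. *Thrsp* and *Mid1ip1*, whose proteins pair, had an r of 0.489 (permutation p = 0.107, adjusted p = 0.351) and a rho of 0.42 (permutation p = 0.178, adjusted p = 0.539), and r was 0.038 without 2 mice. *Fasn* and *Acly* had an r of 0.288 (permutation p = 0.36, adjusted p = 0.572) and a rho of 0.189 (permutation p = 0.557, adjusted p = 0.668), with r at -0.0516 without 2 mice and 0.687 with group means removed.

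**Figure D4:**
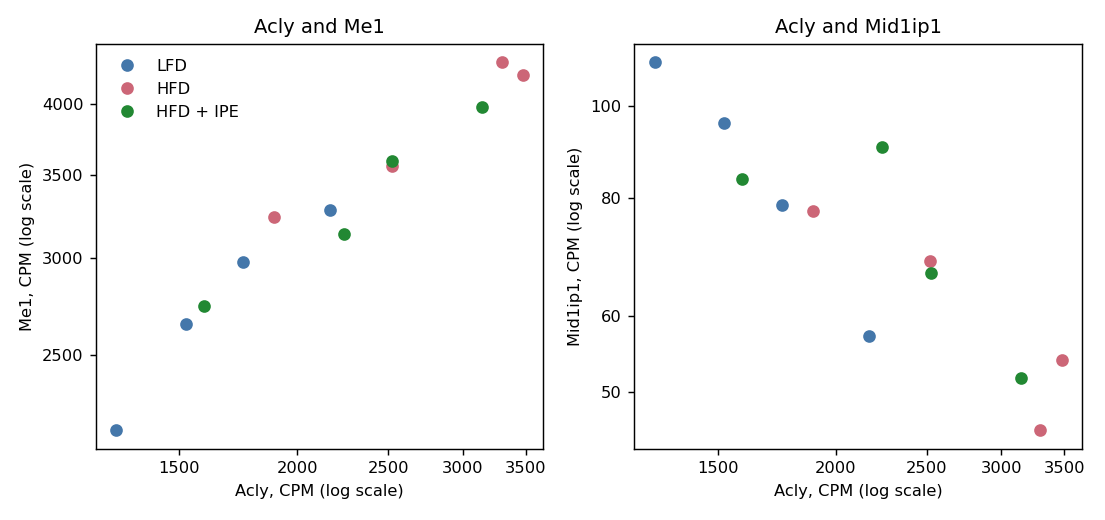
Level of *Me1* (left, y axis) and *Mid1ip1* (right, y axis) against that of *Acly* (x axis) in the 12 mice, in CPM on log axes, with colors for the LFD, HFD, and HFD + IPE groups. *Me1* increases with *Acly* through all 3 groups (r = 0.976), and *Mid1ip1* decreases (r = -0.895).

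The same genes followed the cell type markers. Of 27 relations between the 9 members and the mean log2 CPM of the adipocyte, chromaffin, or adrenocortical markers over the 12 mice, 8 had an adjusted p of r below 0.05. The relations were computed for the members only, so the share of all genes that follow these markers is not known. The count therefore does not set the members apart from other genes. *Acly* and *Me1* had an r of 0.97 and 0.959 with the adrenocortical markers (permutation p = 1e-05 and adjusted p = 0.000135 for both), with a rho of 0.958 for both (permutation p = 1e-05 and 2e-05, adjusted p = 0.00027). Without 2 mice, r was 0.981 and 0.945, and with group means removed 0.955 and 0.95. For *Mid1ip1*, r was -0.89 (permutation p = 0.00014, adjusted p = 0.00126) and rho -0.902 (permutation p = 0.0002, adjusted p = 0.0018), with r at -0.873 without 2 mice and -0.888 with group means removed. For *Slc25a1*, r was 0.759 (permutation p = 0.00372, adjusted p = 0.0251) and rho 0.685 (permutation p = 0.0169, adjusted p = 0.0603), with r at 0.733 without 2 mice and 0.806 with group means removed.

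The chromaffin markers had an r of -0.691 with *Acly*, -0.714 with *Me1*, and 0.718 with *Mid1ip1* (permutation p = 0.0123, 0.00874, and 0.00825; adjusted p = 0.0414, 0.0393, and 0.0393), and a rho of -0.657, -0.692, and 0.678 (permutation p = 0.023, 0.0148, and 0.0179; adjusted p = 0.0691, 0.0603, and 0.0603). Without 2 mice, r was -0.687, -0.718, and 0.789, and with group means removed it was -0.488, -0.509, and 0.598. The adipocyte markers had an r of 0.675 with *Mid1ip1* (permutation p = 0.0119, adjusted p = 0.0414) and a rho of 0.818 (permutation p = 0.00167, adjusted p = 0.0113), with r at 0.706 without 2 mice and 0.85 with group means removed. *Fasn*, which adipocytes also express, had an r of -0.545 with the adipocyte markers (permutation p = 0.0628, adjusted p = 0.169) and a rho of -0.524 (permutation p = 0.0842, adjusted p = 0.175), and r was -0.671 without 2 mice. *Thrsp*, another gene of adipocytes, had an r of -0.0221 with them (permutation p = 0.948, adjusted p = 0.948) and a rho of 0.0909 (permutation p = 0.785, adjusted p = 0.847), and r was 0.306 without 2 mice.

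For each member, the 3 genes most like it over the 12 mice were taken from 13459 genes by the Pearson r of log2 CPM, as a description. *Acly* was closest to *Adam9*, *Twf1*, and *Slc6a8* (r = 0.985 each), and *Me1* to *Acsl4* (0.991), the fatty acid activating enzyme that prefers arachidonic acid, *Arhgap21* (0.987), and *Acox3* (0.986), a peroxisomal acyl-CoA oxidase. For *Mid1ip1*, *Pmm1* (0.974) and *Hlf* (0.964) were among the closest. *Thrsp* was closest to *Gatm* (0.917), the first enzyme of creatine synthesis, and to the immunoglobulin genes *Igkc* (0.894) and *Jchain* (0.874). *Slc25a1* was closest to *Iah1* (0.975), *2010003K11Rik* (0.965), and *Surf6* (0.96). For *Fasn*, *Rbm15b* (0.924) and *Sertad1* (0.919) were among the closest. *Acaca* was closest to *Plod1* (0.932), *Fblim1* (0.917), and *Stab1* (0.911), and *Acacb* to *Atg9a* (0.928), *Usp48* (0.926), and *Usp40* (0.923). For *Acss2* the values were lower, with *Gnb1* (0.884), *Amd1* (0.878), and *Arsb* (0.863).

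Around the 9 genes, a list of 45 others covered regulators, AMP-activated kinase, users of malonyl-CoA and palmitate, and suppliers of NADPH and carbon, together with mitochondrial fatty acid synthesis. In HFD versus LFD mice, 44 were tested, of which 3 rose, 0 fell, and 41 did not pass the edgeR threshold, which 1.45% of all genes passed. By DESeq2, 11 had a positive and 2 a negative log2 fold change with an adjusted p below 0.05, beside 12.7% of all genes in either direction. The median log2 fold change was 0.19, with 37 values above 0 and 7 below, beside -0.015 over all genes. The genes that rose were *Gpam*, which starts glycerolipid synthesis from acyl-CoA (log2 fold change 1.94 ± 0.36 SE, edgeR adjusted p = 0.045), *Acsl1*, which activates fatty acids to acyl-CoA (0.76, SE 0.089, adjusted p = 0.0293), and *Prkab1*, a regulatory subunit of AMP-activated kinase (0.66, SE 0.13, adjusted p = 0.049999). For *Gpam*, LFD mice ranged from 10.29 to 20.34 CPM and HFD mice from 32.44 to 92.34 CPM, without overlap. *Acsl1* ranged from 47.16 to 57.18 CPM on the LFD and from 82.23 to 96.97 CPM on the HFD, and *Prkab1* from 26.45 to 32.94 and from 37.11 to 53.45 CPM. Calls in the list depended on single mice, with 12 without HFD mouse 1, 1 without LFD mouse 2, and 0 without any of the others.

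**Figure D5:**
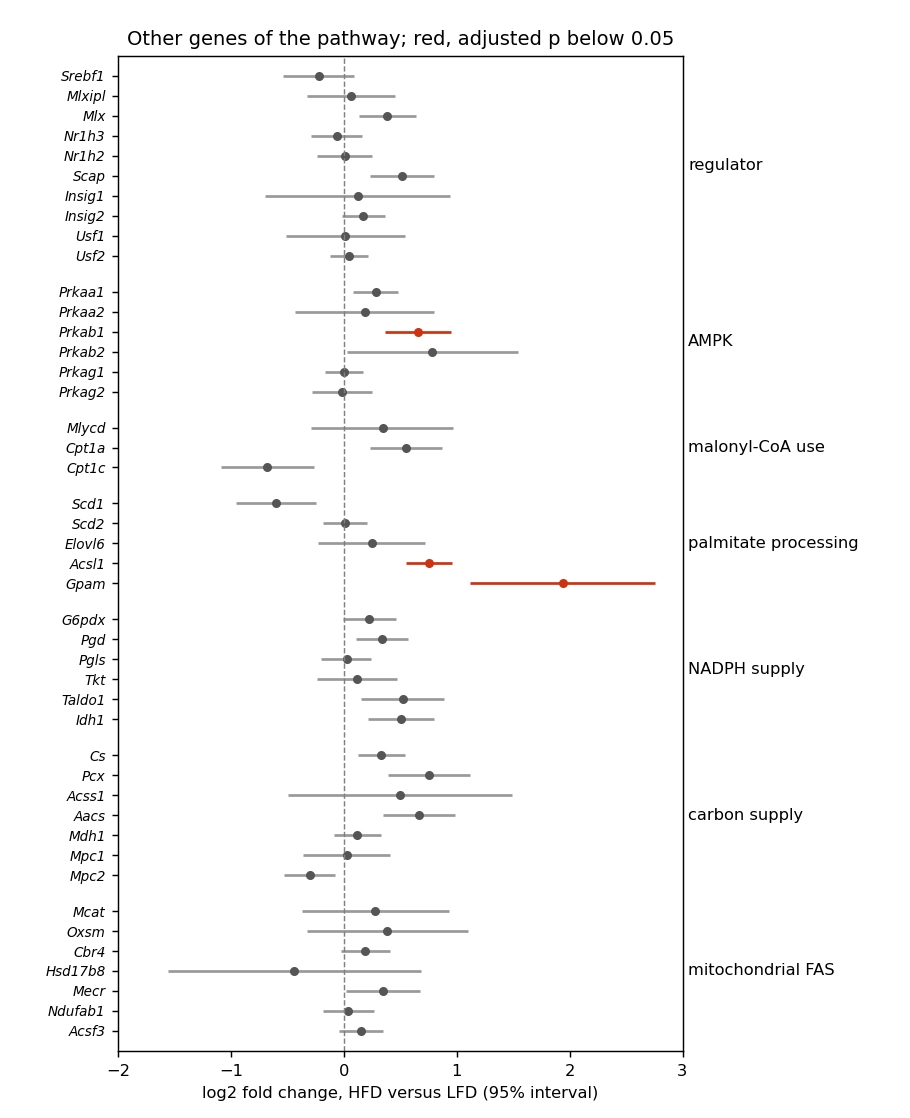
Log2 fold change of HFD versus LFD mice (x axis) for the 44 tested genes of the pathway list (y axis), grouped by role, with points for edgeR estimates and lines for 95% intervals. Red marks the 3 genes with an adjusted p below 0.05, *Prkab1*, *Acsl1*, and *Gpam*, and 37 of the 44 points lie above 0.

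Among the 10 regulators, which are transcription factors of lipogenesis and proteins that control SREBP, 0 passed by edgeR, 2 were at an unadjusted p below 0.05 (24.8% of all genes), and 2 passed by DESeq2 (12.7% of all genes). These 2, named after their values were seen, were *Scap*, the SREBP escort, and *Mlx*, the partner of ChREBP. *Scap* was at 91.34 to 133.5 CPM on the LFD and at 149.8 to 192.4 CPM on the HFD, without overlap (log2 fold change 0.51, adjusted p of 0.0712 by edgeR and 0.016 by DESeq2). *Mlx* was at 34.11 to 40.75 CPM and at 39.07 to 54.68 CPM (log2 fold change 0.385, adjusted p of 0.0946 by edgeR and 0.0425 by DESeq2). *Srebf1*, the gene of SREBP1, ranged from 173.3 to 252.5 CPM on the LFD and from 166.9 to 208.3 CPM on the HFD (log2 fold change -0.225, interval -0.54 to 0.09). *Mlxipl*, the gene of ChREBP, was low, between 3.607 and 4.672 CPM and between 3.675 and 4.997 CPM, with a log2 fold change of 0.06 (interval -0.33 to 0.45). *Nr1h3*, the gene of the oxysterol receptor LXR alpha, had a log2 fold change of -0.065 (interval -0.29 to 0.16), and *Insig1*, which holds SREBP in the endoplasmic reticulum, one of 0.12 (interval -0.70 to 0.94). Of the catalytic subunits of AMP-activated kinase, which inhibits the carboxylases, *Prkaa1* was at 0.28 (adjusted p = 0.115 by edgeR) and *Prkaa2* at 0.18 (adjusted p = 0.718).

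Among the genes that meet malonyl-CoA and palmitate, *Cpt1a*, the carnitine transferase that malonyl-CoA inhibits, was at 0.55 on the log2 fold scale (SE 0.14, edgeR adjusted p = 0.0745), and its 4 HFD mice, from 443.1 to 508.1 CPM, were above all LFD mice (231.8 to 383.8 CPM). *Mlycd*, which degrades malonyl-CoA, was at 0.34 (interval -0.29 to 0.97). *Scd1*, the desaturase that acts on newly made saturated fatty acids, was lower in every HFD mouse, at 164.3 to 260.2 CPM against 280.5 to 365.6 CPM, and its log2 fold change was -0.61 (SE 0.16, edgeR adjusted p = 0.076 and DESeq2 adjusted p = 0.0165). *Scd2* was at 0.005 (interval -0.19 to 0.20), and *Elovl6*, which lengthens palmitate, at 0.249 (interval -0.23 to 0.72). The 6 genes of NADPH supply all had positive values. *Idh1* was at 0.504 (adjusted p = 0.0765 by edgeR) without overlap of the groups, *Pgd* at 0.34 (adjusted p = 0.101), and *G6pdx* at 0.22 (adjusted p = 0.217).

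In HFD + IPE versus HFD mice, 43 genes of the list were tested and 0 passed, also by DESeq2 and at an unadjusted p below 0.05, with 32 log2 fold changes below 0, 11 above, and a median of -0.08. *Gpam* was at 101.3, 29.04, 29.08, and 37.85 CPM in HFD + IPE mice (log2 fold change -0.08, interval -1.16 to 1.01). In HFD + IPE versus LFD mice, 0 of 43 passed by edgeR, with 9 positive and 2 negative at an unadjusted p below 0.05, beside 14% of all genes. By DESeq2, *Acsl1* and *Gpam* were higher and *Scd1* and *Cpt1c* lower, beside 2.96% of all genes, with the adjusted p of *Scd1* at 0.000298.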

How the data were processed

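RNA of the adrenal cortex of 12 mice was analysed from raw read counts per gene, which the authors deposited for each mouse. Per the methods of the study and the labels, stranded total RNA libraries were trimmed with cutadapt, aligned to GRCm38 with STAR, and counted on GENCODE M12 genes with HTSeq 0.6.1p1 in reverse-strand mode. Reads of a member were therefore not mixed with those of genes on the opposite strand, and no other counted gene shared exons with a member on its own strand. Symbols, coordinates, and exon lengths came from GENCODE M21 (49326 of 49585 genes matched). *Hsd17b8* was matched under its other name *H2-Ke6*. Counts summed to between 34785979 and 67295963 per mouse. No 2 of the 12 libraries were copies.

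Each pair of groups was compared with edgeR 4.0.16 in R 4.3.3 (TMM scaling, the filter of filterByExpr at 10 counts, the quasi-likelihood fit with robust priors, and adjusted p-values by Benjamini-Hochberg over all genes tested at a threshold of 0.05), on the mice of those groups, without covariates. CPM used the TMM-scaled totals of all 12 mice. Alternatives were DESeq2 1.42.0, DESeq2's size factors, library totals, other filters on low counts, all 12 mice in 1 fit, a threshold of 0.1, marker lists as covariates, and leaving out each mouse. Correlations used log2 CPM with a prior count of 2 and 100000 permutations of all 12 mice, made without regard to group. A difference between groups that 2 genes share therefore enters r and its p. No p was computed for r with group means removed. The steps across genes were tested on simulated data.

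The members, the pathway list, and the marker lists were chosen with earlier results of these data known. Named were the 9 members, the genes of the pathway list past the threshold in any comparison together with a preset choice of its regulators and enzymes, and the 3 genes most like each member with a mean of at least 1 CPM. Some of these genes are not reported here. *Cpt1c*, *Scap*, and *Mlx* were named after their values were seen. No member is missing from any test.

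The deviations of same-numbered HFD and HFD + IPE mice from their group means had correlations of 0.326, 0.139, 0.416, and 0.785 for the numbers 1 to 4. All were positive, so the number was also fitted as a replicate block. The labels do not say what a number marks. HFD + IPE mouse 2 correlated more with HFD mouse 1 (0.708), and HFD + IPE mouse 1 more with HFD mouse 2 (0.592). HFD mouse 3 correlated slightly more with HFD + IPE mouse 4 (0.448). LFD and HFD mice share only 1 number and were not paired.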

Additional observations from a re-analysis of the deposited data

Results flagged for a closer look

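In 27 groups of 4 mice (9 genes in 3 groups), 2 values stood apart from the other 3 mice of their group by more than Dixon's 95% limit, of which chance gives about 1 in 20. *Fasn* in HFD mouse 3 was at 298.7 CPM, with a gap of 0.941 of the range of its group. *Acss2* in HFD + IPE mouse 4 was at 72.4 CPM, with a gap of 0.948 of the range.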

How the results depend on the processing

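No member passed in the main fits, so none could lose a call under an alternative. Of 468 log2 fold changes of members under an alternative, 440 kept their direction and their side of the threshold, 11 newly passed it (under 4 alternatives), and 17 changed sign. The cause was not tested. In HFD versus LFD mice, members with an adjusted p below 0.05 numbered 0 by edgeR, 3 by DESeq2, 1 with all 12 mice in 1 fit, and 4 with the adipocyte covariate, and 2 had an adjusted p below 0.1. Leaving out 1 mouse at a time gave 0 to 2, with *Acly* and *Thrsp* passing without HFD mouse 1. Of all genes, 230 passed by edgeR, 2019 by DESeq2, 84 with library totals, 556 with all 12 mice, 1440 with the adipocyte, 0 with the chromaffin, and 1182 with the adrenocortical covariate, and 1396 at a threshold of 0.1. Leaving out 1 mouse at a time gave 0 to 918 (918 without HFD mouse 1, 78 without LFD mouse 2, and 0 without any other). Of the pathway list, 3 passed by edgeR, 13 by DESeq2, and 0 to 12 without 1 mouse.

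In HFD + IPE versus HFD mice, 6 genes passed by DESeq2. The replicate block changed no call of a member, and *Mid1ip1* had a log2 fold change of 0.251 with it. In HFD + IPE versus LFD mice, DESeq2 passed 1 member, 471 genes, and 4 genes of the pathway list, all 12 mice in 1 fit passed 2 genes, and leaving out 1 mouse gave 0 to 1.

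Sign changes concerned values near 0 or marker covariates. *Slc25a1* in HFD versus LFD mice was at -0.041 with library totals and -0.077 with the adrenocortical covariate, and *Acaca* at -0.017 with library totals. *Mid1ip1* was at 0.086 with the adrenocortical covariate. In HFD + IPE versus HFD mice, *Slc25a1* was at 0.047 with library totals, 0.036 with the adipocyte, 0.005 with the chromaffin, and 0.034 with the adrenocortical covariate, and between -0.092 and 0.030 without 1 mouse. In HFD + IPE versus LFD mice, the adrenocortical covariate gave -0.060 for *Slc25a1*, -0.038 for *Me1*, and 0.254 for *Mid1ip1*, and the chromaffin covariate gave 0.114 for *Mid1ip1*. *Slc25a1* ranged from -0.017 to 0.090 without 1 mouse. P-values of the group comparisons set a difference against the spread between 4 mice a group, and those of the correlations come from permutations of all 12 mice. Marker levels differed between the diets, so that in covariate fits the markers and the diet cannot be fully told apart.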
